A study of Mus musculus with 7 samples.

Results

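The genes described here carry out the 2 linked stress programmes that centre on the transcription factor ATF4 and on the unfolded protein response of the endoplasmic reticulum (ER). They were listed by gene name with no threshold on a measured value, although the list was drawn up with earlier results of these data known: stress transcription factors, their effectors, serine, one-carbon and amino acid enzymes, amino acid transporters, ER stress sensors and ER chaperones. All 40 were present among the 48709 genes of the deposited tables, and 39 of them were among the 14907 genes with enough counts to be tested. The exception was Cebpb, whose level was 0.00 and 0.54 TPM (transcript abundance per length, scaled to the same sum in each library) in DMSO, 0.86, 1.66 and 2.64 in GSK-343, and 1.08 and 3.78 in TSA. RNA came from cochlear supporting cells of mice at postnatal day 1; these non-sensory cells lie around and beneath the hair cells. Whole cochleae were cultured with EGF and FGF for 48 h with the solvent DMSO (2 libraries), with 10 µM GSK-343, an inhibitor of the histone methyltransferase EZH2 (3 libraries), or with 200 nM TSA (trichostatin A), an inhibitor of histone deacetylases (2 libraries). GFP-positive cells were then sorted. The labels do not name the GFP reporter, the strain or the genotype. Nor do they say whether replicates were separate cultures or animals, so a p-value here covers no more than the spread among the libraries, which may be technical.

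When unfolded proteins accumulate in the ER, 3 membrane sensors respond. PERK (Eif2ak3) phosphorylates the initiation factor eIF2α, which slows translation in general and favours translation of Atf4. IRE1 (Ern1) splices the mRNA of Xbp1, and ATF6 is cut to release a transcription factor. ATF6 and XBP1 raise ER chaperones such as BiP (Hspa5). ATF4, which amino acid shortage, heme shortage and viral RNA can also induce through other eIF2α kinases, raises amino acid synthesis, uptake and redox genes. An mRNA level does not report phosphorylation, translation, splicing or cleavage, and in bulk RNA fewer cells of a type and less RNA per cell cannot be told apart.

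The libraries held 2724381 to 5974230 counts. The DMSO libraries stood apart from the treated ones: the transcript length minus the effective length, which follows fragment or read length, was 49 bases at the median gene of either DMSO library, and 208 to 213 bases in the 5 treated ones. Mitochondrial rRNA genes took 20.8% and 23.6% of DMSO counts, 3.47% to 8.60% in GSK-343, and 10.4% and 18.1% in TSA. The way the libraries were sequenced or quantified therefore differed together with the treatment, and in every comparison with DMSO the drug and this difference cannot be told apart. TSA and GSK-343 libraries share the 208 to 213 bases, so that comparison comes first. Their mitochondrial rRNA shares still differed. So did the share of counts in nuclear protein-coding genes, 78.2% and 85.4% in TSA and 86.3% to 93.4% in GSK-343. The 15 supporting cell markers were all detected and summed to 6598 to 9160 TPM in DMSO, 28893 to 39529 in GSK-343 and 12528 to 16717 in TSA. The calcium-binding protein gene S100a1 alone held 15057 to 27765 TPM of the GSK-343 sums; without it the ranges were 5830 to 7957, 10417 to 13836 and 6901 to 10031 TPM. Between GSK-343 and DMSO 3 of the 15 were higher and 3 lower (Prox1, Jag1 and Cdkn1b), beside 17.7% and 21.3% of all genes. The 12 hair cell markers summed to 83.3 to 115 TPM in DMSO, 329.5 to 698 in GSK-343 and 516 to 2025 in TSA, and the 10 neuron markers to 36.1 to 63.0, 52.6 to 158 and 478 to 633. Of the supporting cell markers tested, 5 of 15 were lower in TSA than in GSK-343 and 0 higher, beside 5.00% and 4.56% of all genes. Of the neuron markers 3 of 9 were higher and 0 lower. Against DMSO, 7 of 11 hair cell markers were higher in TSA and 5 of 11 in GSK-343, with 0 lower, where 12.8% and 17.7% of all genes were higher. In TSA against DMSO 5 of 15 supporting cell markers were lower and 0 higher, beside 15.7% and 12.8%, and 5 of 9 neuron markers were higher and 0 lower. The other lists summed to 46.3 to 149 TPM for Schwann cells, 102 to 276 for mesenchyme, and at most 18.7 for immune cells, 5.31 for endothelium, 14.6 for blood and 16.8 for melanocytes. Their part in the results below was not tested.

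The promoters of some members carry sequences by which these programmes are known to act. They are shown here because the members were grouped by those programmes. RefSeq start sites (GRCm38.p6) gave a window of 300 bases, 250 before and 50 after the start, for 34 of the 40 members. No window was used for Manf, Aldh1l2, Eif4ebp1, Atf6, Slc7a5 or Hyou1. The core of the C/EBP-ATF response element, TGATGNAA on either strand, occurred in 9 of the 34 windows (26.5%) and in 4.51% of the windows of 27025 gene symbols. The 9 were Atf3, Trib3, Chac1, Asns, Pycr1, Nupr1, Slc7a11, Vldlr and Herpud1. The ER stress response element, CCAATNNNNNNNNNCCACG on either strand, occurred in 4 of 34 (11.8%), namely Hspa5, Hsp90b1, Dnajc3 and Creld2, and in 0.137% of all windows. TGACGTGG, the core of the unfolded protein response element, was found in 0 of 34 windows and in 0.714% of all. No spelled motif contains another, and no member held both of the motifs that were found. A match is only a match of letters.

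The next 4 sequences show the ATF element core in capitals, in promoters of members whose levels moved in unlike ways. In Asns (asparagine synthetase, chr6:7693169-7693288, minus strand) it lies 23 to 16 bases before the start, in Atf3 (chr1:191183380-191183499, minus strand) and in Nupr1 (chr7:126625517-126625636, minus strand) 110 to 103 bases before it, and in Trib3 (chr2:152344011-152344130, minus strand) 14 to 21 bases after it.
Asns: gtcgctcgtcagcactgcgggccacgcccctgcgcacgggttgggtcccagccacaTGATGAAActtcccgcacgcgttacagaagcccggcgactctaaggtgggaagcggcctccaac
Atf3: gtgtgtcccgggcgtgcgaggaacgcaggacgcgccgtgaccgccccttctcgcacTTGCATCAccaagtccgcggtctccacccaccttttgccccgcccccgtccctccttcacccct
Nupr1: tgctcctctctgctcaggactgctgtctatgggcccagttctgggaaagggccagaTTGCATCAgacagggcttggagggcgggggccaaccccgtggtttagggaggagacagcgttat
Trib3: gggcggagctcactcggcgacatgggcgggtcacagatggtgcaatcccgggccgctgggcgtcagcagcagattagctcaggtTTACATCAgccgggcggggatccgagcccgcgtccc

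The next 3 show the ER stress response element in capitals in chaperone promoters: Hspa5 (chr2:34771974-34772093, plus strand), 65 to 47 bases before the start; Hsp90b1 (chr10:86705518-86705671, minus strand), which holds 2 copies, one on each strand, 212 to 194 and 107 to 89 bases before it; and Creld2 (chr15:88819469-88819588, plus strand), on the other strand, 126 to 108 bases before it.
Hspa5: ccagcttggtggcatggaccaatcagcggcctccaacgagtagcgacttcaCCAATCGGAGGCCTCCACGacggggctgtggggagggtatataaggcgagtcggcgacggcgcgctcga
Hsp90b1: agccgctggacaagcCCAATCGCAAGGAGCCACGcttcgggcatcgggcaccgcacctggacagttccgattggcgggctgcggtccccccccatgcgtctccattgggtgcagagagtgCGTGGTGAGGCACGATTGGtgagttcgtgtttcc
Creld2: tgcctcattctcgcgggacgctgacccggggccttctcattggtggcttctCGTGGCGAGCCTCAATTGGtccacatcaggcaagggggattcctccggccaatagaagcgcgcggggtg

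Levels differed widely among the members. By mean TPM over the 7 libraries the order was led by Manf (1438), Hsp90b1 (550.0), Hspa5 (463), Psat1 (387) and Atf4 (183), and it ended with Aldh1l2 (2.26), Cebpb (1.51) and Slc7a11 (1.20). Summed over all 40, the members took 2450.2 and 2491 TPM in DMSO, 5645, 4970.5 and 5739 in GSK-343, and 3859 and 4723 in TSA. Manf alone held 88.8 and 83.9 of these TPM in DMSO, against 1303 to 2245 among treated libraries.

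**Figure D1:**
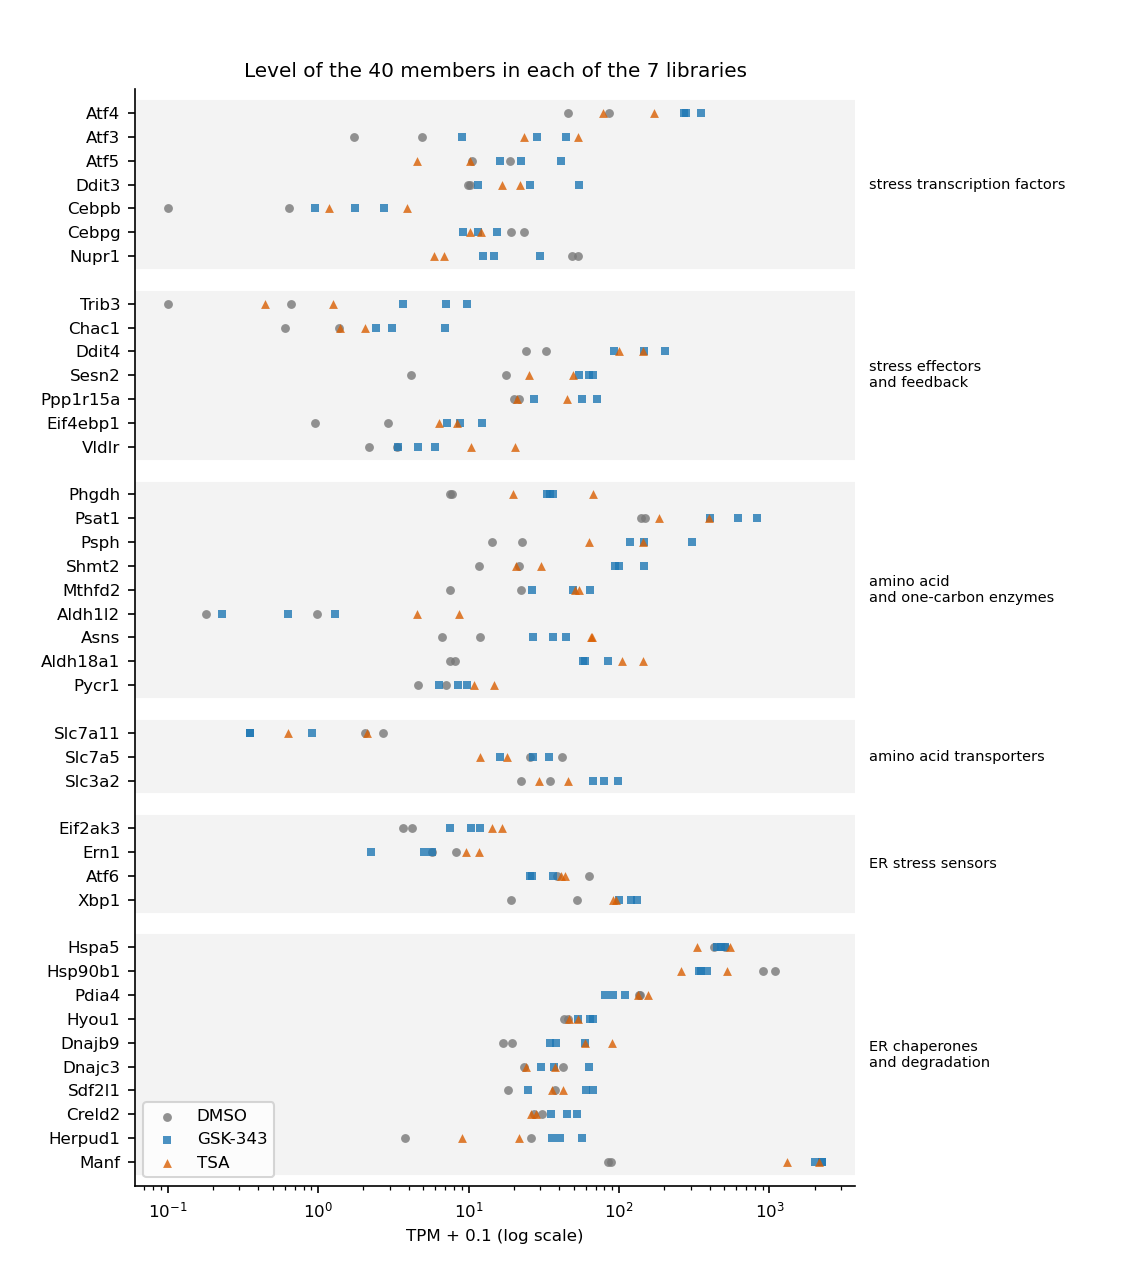
TPM of each of the 40 members in each of the 7 libraries (log axis, 0.1 added), grouped by role; grey circles are DMSO, blue squares GSK-343 and orange triangles TSA. Manf lies near 85 TPM in DMSO and at 1303 or more in all treated libraries, while the points of Hspa5 from the 3 groups interleave.

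TSA and GSK-343 were compared first, across all 7 libraries in edgeR's quasi-likelihood test with Benjamini-Hochberg adjustment over all 14907 genes; a gene is called at an adjusted p under 0.05, and the error of a log2 fold change is its standard error. Of the 39 members tested, 4 were lower in TSA and 0 were higher, against 5.00% of all genes called lower and 4.56% called higher. At an unadjusted p under 0.05, 12 members were lower and 1 higher; DESeq2 called 5 lower and 1 higher (Aldh1l2), and limma on log2(TPM + 1) called 1 lower and 0 higher, where 0.741% and 2.30% of all genes were called lower and higher. The members' median log2 fold change was -0.66, with 27 below 0 and 12 above, and that of all genes was 0.00. The 4 called were Atf4 itself, its relative Atf5, and 2 enzymes of serine and one-carbon metabolism, Shmt2 and Psat1.

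Shmt2, the mitochondrial enzyme that splits serine to glycine and a one-carbon unit (chr10:127517123-127522444, minus strand, mm10), stood at 147, 100.1 and 94.1 TPM in GSK-343 and at 30.1 and 20.4 in TSA, beside 21.6 and 11.6 in DMSO. Both TSA libraries were below all 3 GSK-343 libraries, and TSA overlapped with DMSO. The log2 fold change of TSA against GSK-343 was -2.53 ± 0.39 (adjusted p = 0.00645), a 5.77-fold difference. Its call held without any single library, but not in limma on log2(TPM + 0.1) or in limma with no filter, the highest adjusted p of its 19 alternatives being 0.081.

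Atf4, the central transcription factor (chr15:80255184-80257541, plus strand), stood at 277, 272 and 351 TPM in GSK-343, 170 and 78.3 in TSA and 85.0 and 45.8 in DMSO. The TSA libraries were again below the GSK-343 ones, and they overlapped with DMSO. The log2 fold change was -1.68 ± 0.39 (edgeR adjusted p = 0.0229). Atf5, a related factor that drives mitochondrial stress genes, stood at 16, 22.3 and 40.9 TPM in GSK-343 and 10.1 and 4.41 in TSA, with 10.5 and 18.7 in DMSO. Its log2 fold change was -2.31 ± 0.67 (edgeR adjusted p = 0.049). With all libraries kept, the 3 limma fits did not call Atf4 (adjusted p = 0.111 to 0.215) or Atf5 (0.115 to 0.214). In edgeR, Atf5 was also lost under DESeq2 size factors (0.0553) and total count scaling (0.0829). The same held with replicate number as a block (0.177) and with GC and length trends removed (0.0874). Both calls also rested on single libraries. That of Atf4 was lost without TSA replicate 2 (adjusted p = 0.212) or GSK-343 replicate 3 (0.0591), within a range of 0.000701 to 0.215 over its 19 alternatives. That of Atf5 was lost without GSK-343 replicate 2 (0.0783) or 3 (0.168) and without TSA replicate 1 (0.0594) or 2 (0.310), within 0.0122 to 0.310.

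Psat1, the second enzyme of serine synthesis, stood at 616, 405 and 821 TPM in GSK-343, 398 and 183 in TSA, and 139 and 148 in DMSO. The highest TSA library nearly reached the lowest GSK-343 library. The log2 fold change was -1.50 ± 0.40 (edgeR adjusted p = 0.0383). The Psat1 call was lost under total count scaling (0.0841), in a fit of the 2 groups alone (0.0511) and with the replicate block (0.0831). All 3 limma fits lost it too (0.163 to 0.319). The call was lost without DMSO replicate 1 (0.0532), GSK-343 replicate 3 (0.111) or TSA replicate 2 (0.290), within 0.00218 to 0.319 over 19 alternatives. The enzymes on either side of Psat1 in the pathway were not called. Phgdh, the first, stood at 33.3, 34.6 and 36.4 TPM in GSK-343 and at 66.8 and 19.6 in TSA, and the last, Psph, at 304, 119 and 147 against 145 and 62.9. The ratio of Psat1 to Phgdh TPM was 18.5, 11.7 and 22.5 in the GSK-343 libraries, 5.95 and 9.33 in TSA and 18.3 and 20 in DMSO. Mthfd2, which follows Shmt2 in the mitochondrial folate pathway, stood at 53.8 and 50.9 TPM in TSA, within the range of GSK-343 (26.1 to 64.0). The ratio of Shmt2 to Mthfd2 TPM was 2.98, 3.83 and 1.47 in GSK-343, and 0.559 and 0.402 in TSA.

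**Figure D2:**
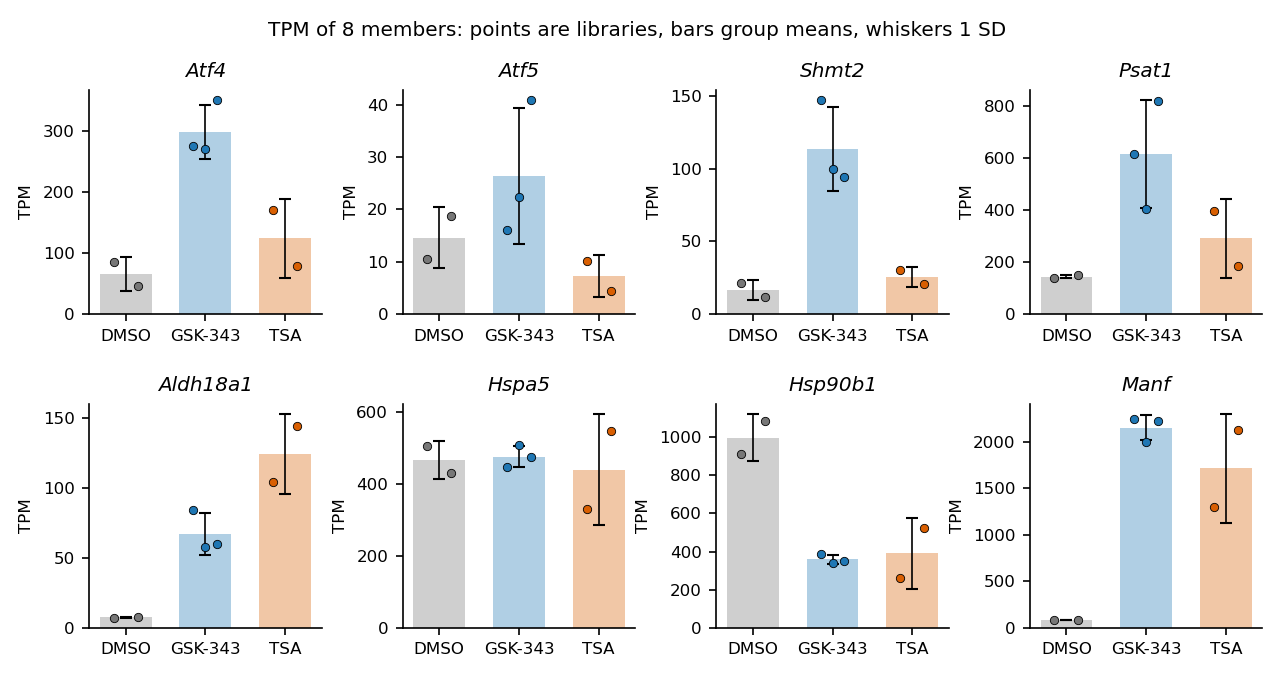
TPM of 8 members in the 3 groups; points are libraries, bars group means and whiskers 1 SD (n = 2, 3 and 2). Shmt2 is high in GSK-343 alone, Aldh18a1 and Manf are high in both treated groups, and Hsp90b1 is high in DMSO.

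Several members stood higher in TSA than in GSK-343 without a call. Asns, which makes asparagine and is a standard ATF4 target, stood at 26.8, 44.1 and 36.4 TPM in GSK-343 and 65.5 and 65.9 in TSA, with 11.9 and 6.51 in DMSO. Both TSA libraries were above the GSK-343 ones although Atf4 was below them; the log2 fold change was 0.49 ± 0.43 (edgeR adjusted p = 0.486). The ratio of Asns to Atf4 TPM was 0.0967, 0.162 and 0.104 in GSK-343, 0.385 and 0.841 in TSA and 0.139 and 0.142 in DMSO. Aldh1l2, a mitochondrial folate dehydrogenase, stood at 0.53, 0.13 and 1.20 TPM in GSK-343 and at 4.46 and 8.52 in TSA. Vldlr, a lipoprotein receptor that is an ATF4 target, stood at 5.89, 3.32 and 4.49 TPM against 20.3 and 10.3. Atf3, a transcription factor induced by ATF4, ranged from 8.99 to 44.4 TPM in GSK-343 and stood at 23.1 and 53.3 in TSA (log2 fold change 0.20 ± 0.68, adjusted p = 0.888), a direction that turned to -0.70 when TSA replicate 2 was left out and to -0.21 when GSK-343 replicate 2 was. Ddit3 (CHOP), which links prolonged stress to cell death, overlapped between the groups, at 25.4, 54.0 and 11.4 TPM in GSK-343 and 16.6 and 21.9 in TSA (log2 fold change -0.93 ± 0.75, adjusted p = 0.453).

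Among the 7 effectors and feedback genes, 0 were called in either direction (2 were lower at an unadjusted p under 0.05, and DESeq2 and limma called 0), and 6 of 7 log2 fold changes were below 0. Of all genes, edgeR called 5.00% lower and 4.56% higher. Beside these shares, 0 edgeR calls among 7 effectors or 3 transporters do not set either group apart. Trib3, a pseudokinase that restrains ATF4, stood at 7.01, 3.56 and 9.70 TPM in GSK-343 and at 1.16 and 0.34 in TSA. Sesn2, which signals amino acid shortage to mTORC1, stood at 53.7, 62.7 and 67.1 against 49.3 and 25.3. Of the 3 transporters, the heavy chain Slc3a2 stood at 67.5, 79.4 and 99.0 TPM in GSK-343 and 45.5 and 29.4 in TSA. Its partner Slc7a5, with which it forms the large neutral amino acid exchanger, stood at 34.3, 26.8 and 16 against 17.8 and 11.8. None of the 3 was called by edgeR (2 lower at an unadjusted p under 0.05) or limma, and DESeq2 called 1 lower.

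The ER sensors, grouped with the IRE1 target Xbp1, and the chaperones gave 0 calls between TSA and GSK-343 among 14 members. DESeq2 and limma also called 0, and at an unadjusted p under 0.05 in edgeR 2 were lower, both chaperones, and 0 higher. Of all genes, edgeR called 5.00% lower and 4.56% higher, so 0 calls among so few members do not set them apart. Eif2ak3 (PERK) stood at 11.8, 7.41 and 10.2 TPM in GSK-343 and 14.2 and 16.6 in TSA (log2 fold change 0.31 ± 0.44, adjusted p = 0.691), and Ern1 (IRE1) at 2.14, 4.99 and 5.58 against 9.45 and 11.7 (0.82 ± 0.51, adjusted p = 0.323). Atf6 stood at 36.2, 26.2 and 25.4 TPM against 41.2 and 43.6; its log2 fold change of 0.19 ± 0.31 (adjusted p = 0.731) turned to -0.70 once trends with GC content and length were removed and to -0.01 without TSA replicate 2. Xbp1 stood at 99.6, 132 and 119.9 against 94.8 and 90.8 (-0.71 ± 0.43, adjusted p = 0.306). In TPM the TSA libraries were thus above GSK-343 for Eif2ak3, Ern1 and Atf6 and below for Xbp1, with no difference that passed the test. In CPM the groups overlapped for Eif2ak3 and Atf6. How many of all genes separate the groups in this way was not determined. Hspa5 (BiP), the main ER chaperone and the usual marker of the response, stood at 446, 507 and 475 TPM in GSK-343 and 331 and 548 in TSA, which enclose them (log2 fold change -0.40 ± 0.34, adjusted p = 0.480).

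**Figure D3:**
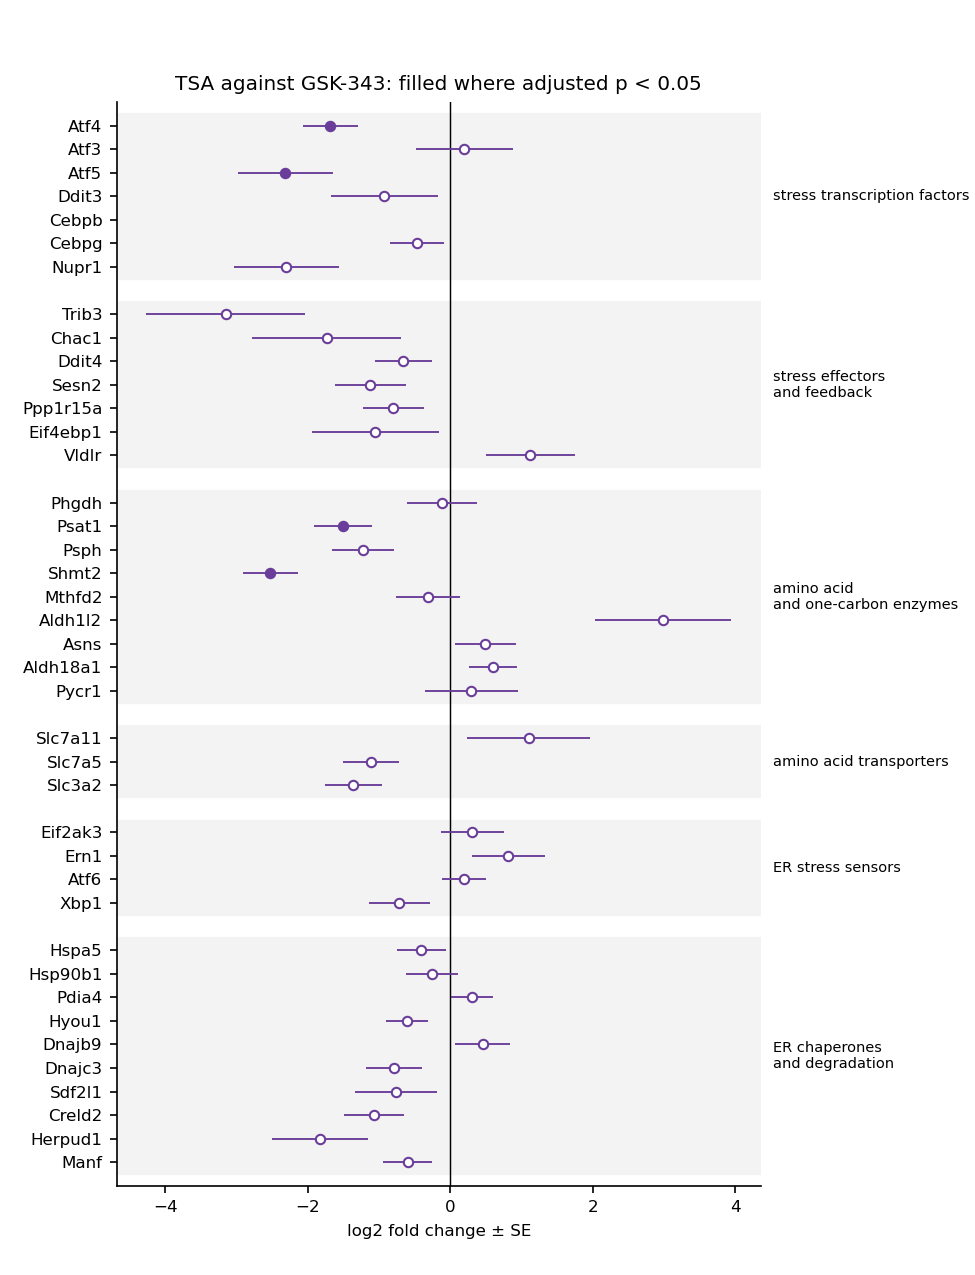
Log2 fold change (± SE) of TSA against GSK-343 for the 39 members tested, grouped by role; filled points have an edgeR adjusted p under 0.05. The 4 filled points, Atf4, Atf5, Psat1 and Shmt2, lie between -1.50 and -2.53, and the points of the ER sensors and chaperones are all open.

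Against DMSO the members split into genes that were higher and genes that were lower, and this holds with the caveat that read layout differed with treatment. GSK-343 against DMSO called 13 members higher and 5 lower, beside 17.7% and 21.3% of all genes, with a median log2 fold change of 0.64 for the members and -0.04 for all genes. TSA against DMSO called 7 higher and 10 lower, beside 12.8% and 15.7%, with medians of -0.35 and -0.05. The 2 comparisons share their DMSO libraries. The split depended on the scaling. Scaling by total count gave 17 higher and 5 lower in the GSK-343 comparison and 12 and 4 in that of TSA, with the median of all genes moved to 0.42 and 0.65. Of all 14907 genes it called 3870 higher and 2263 lower for GSK-343, and 3782 and 1292 for TSA. Limma on log2(TPM + 1), a per-length scale, gave 17 and 2 in the former and 15 and 2 in the latter, with medians of 0.35 and 0.75 for all genes. Of all genes it called 23.2% higher and 11.9% lower for GSK-343, and 26.4% and 8.61% for TSA. Removing GC and length trends gave 9 and 5, and 4 and 10. Of 14870 genes in that fit, 2837 were called higher and 2444 lower for GSK-343, and 2107 and 2309 for TSA. For TSA, only 8 members were called without DMSO replicate 1 or without TSA replicate 1, and 11 without DMSO replicate 2 or TSA replicate 2.

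**Figure D4:**
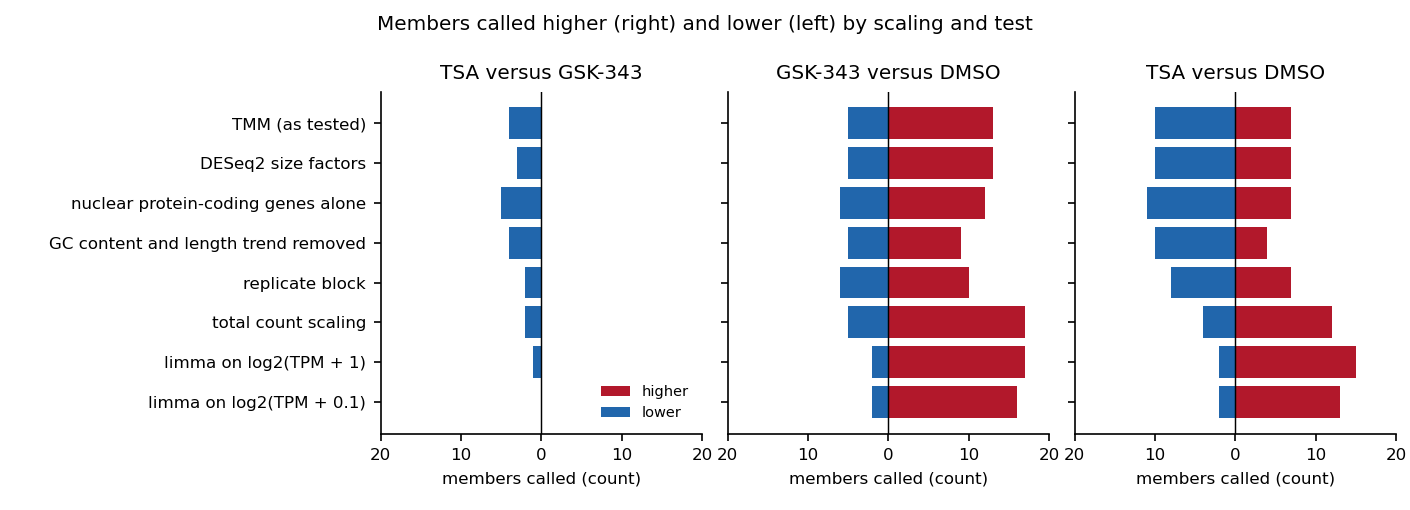
Number of members called higher (red, right) and lower (blue, left) in the 3 comparisons under 8 ways of scaling or testing. Between TSA and GSK-343 the bars of these 8 hold 0 to 5 members, all lower. DESeq2's own test and the fits without a filter are not drawn. Against DMSO the balance for TSA moves from 7 higher and 10 lower under TMM to 15 and 2 under limma on log2(TPM + 1). The shares of all genes called there moved too, from 12.8% higher and 15.7% lower to 26.4% and 8.61%.

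Of the 9 amino acid and one-carbon enzymes, 7 were higher in GSK-343 than in DMSO and 5 were higher in TSA, and 0 were lower in either (0 also at an unadjusted p under 0.05, in DESeq2 and in limma). Of all genes, edgeR called 17.7% and 12.8% higher, and 21.3% and 15.7% lower. Aldh18a1, the first enzyme of proline synthesis from glutamate, stood at 7.41 and 8.00 TPM in DMSO, 84.5, 57.8 and 59.8 in GSK-343, and 104 and 145 in TSA. The DMSO libraries lay far below all 5 others. The log2 fold change was 3.37 ± 0.41 in GSK-343 (edgeR adjusted p = 0.000131) and 3.97 ± 0.43 in TSA (adjusted p = 0.000132). Pycr1, the last enzyme of the same pathway, stood at 4.48 and 6.95 TPM in DMSO, 6.23 to 9.66 in GSK-343 and 10.8 and 14.6 in TSA, and was not called. The ratio of Aldh18a1 to Pycr1 TPM was 1.65 and 1.15 in DMSO, against 6.19 to 13.6 across the 5 treated libraries. The estimated transcript length of Aldh18a1 also differed, at 1481 and 1760 bases in DMSO and 3211 to 3484 in the others.

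Psph rose from 14.2 and 22.5 TPM in DMSO to 304, 119 and 147 in GSK-343 (log2 fold change 2.97 ± 0.48, edgeR adjusted p = 0.000751) and stood at 145 and 62.9 in TSA (1.74 ± 0.48, adjusted p = 0.0184). Its exons share up to 452 bases with Cct6a on the other strand, and reads from the pair cannot be told apart where strand was not counted. Shmt2 was higher in GSK-343 (1.93 ± 0.37, adjusted p = 0.00203), whereas TSA gave -0.60 ± 0.39 (adjusted p = 0.267), a sign that turned to 0.11 under total count scaling and 0.61 in limma on log2(TPM + 1). Mthfd2 stood at 7.44 and 22.1 TPM in DMSO and gave 1.87 ± 0.48 in GSK-343 (adjusted p = 0.00898) and 1.56 ± 0.51 in TSA (adjusted p = 0.036). Asns gave 1.32 ± 0.46 in GSK-343 (adjusted p = 0.0376) and 1.81 ± 0.49 in TSA (adjusted p = 0.0173). Aldh1l2 stood at 0.08 and 0.88 TPM in DMSO and gave 4.01 ± 1.19 in TSA (adjusted p = 0.0251); up to 1056 bases of its exons are shared with D10Wsu102e on the other strand.

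Of these, the calls of Aldh18a1, Shmt2 in GSK-343 and Psph in GSK-343 held without any single library and under the other alternatives. In GSK-343, that of Mthfd2 was lost without DMSO replicate 1 (adjusted p = 0.0581, range 0.00105 to 0.0828), and that of Asns when GSK-343 replicate 2 (0.105) or 3 (0.101) or either DMSO library (0.0867 and 0.118) was left out, with a range of 0.00779 to 0.138. In TSA, Psph was lost without DMSO replicate 1 (0.111) or TSA replicate 1 (0.116), within 0.000875 to 0.116. For Asns this was so when TSA replicate 1 (0.0802) or either DMSO library (0.0621 and 0.07) was left out, within 0.00334 to 0.0802. Aldh1l2 was lost without DMSO replicate 1 (0.108) or TSA replicate 2 (0.196), within 0.00366 to 0.196. Mthfd2 was lost in TSA without any 1 of the DMSO or TSA libraries (0.0554 to 0.144), within 0.00667 to 0.144.

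The transcription factors went both ways. Atf4 was higher in GSK-343 than in DMSO (log2 fold change 1.34 ± 0.38, edgeR adjusted p = 0.0148) and not in TSA (-0.34 ± 0.40, adjusted p = 0.555), where the sign turned to 0.39 under total count scaling and 0.88 in limma on log2(TPM + 1). Atf3, at 1.63 and 4.81 TPM in DMSO, was higher in GSK-343 (2.16 ± 0.76, adjusted p = 0.0393) and in TSA (2.36 ± 0.80, adjusted p = 0.0436). Nupr1, a small stress-induced chromatin protein, had the reverse pattern: 48.6 and 53.0 TPM in DMSO, 12.3, 14.6 and 29.7 in GSK-343 and 5.83 and 6.77 in TSA. Its log2 fold change was -2.68 ± 0.59 in GSK-343 (adjusted p = 0.00398) and -4.97 ± 0.80 in TSA (adjusted p = 0.0014), and both calls held in all 19 alternatives. Cebpg, a partner of ATF4 on the element shown above, stood at 23.4 and 19.2 TPM in DMSO, 9.15 to 15.4 in GSK-343 and 10.1 and 11.9 in TSA (-1.52 ± 0.36, adjusted p = 0.00583, and -1.98 ± 0.42, adjusted p = 0.00553). Limma on log2(TPM + 1) did not call it (adjusted p = 0.136 and 0.127, within 0.00146 to 0.136 and 0.000408 to 0.129 over the alternatives), and in TSA the call was lost without TSA replicate 1 (0.0549). Atf5 in TSA gave -2.31 ± 0.71 (adjusted p = 0.0281).

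Single libraries bore on several of these. Atf4 in GSK-343 lost its call without DMSO replicate 2 (adjusted p = 0.128) and with GC and length trends removed (0.258), within 0.00186 to 0.258. Atf3 in GSK-343 lost it without DMSO replicate 1 (0.188), GSK-343 replicate 1 (0.0932) or replicate 3 (0.0743), within 0.00224 to 0.188. Atf3 in TSA lost it without DMSO replicate 1 (0.187) or TSA replicate 2 (0.27), within 0.00271 to 0.27. Atf5 in TSA lost it without DMSO replicate 2 (0.128) or TSA replicate 2 (0.167), within 0.0110 to 0.266. Ddit3 was not called in either drug, at 9.83 and 10.1 TPM in DMSO, with log2 fold changes of 0.49 ± 0.73 (adjusted p = 0.622) and -0.43 ± 0.81 (adjusted p = 0.719); these signs turned to -0.27 without GSK-343 replicate 2 and to 0.25 under total count scaling.

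Of the effectors, 3 of 7 were higher in GSK-343 than in DMSO and 0 lower, beside 17.7% and 21.3% of all genes. In TSA 0 were called in either direction, beside 12.8% and 15.7% (0 also at an unadjusted p under 0.05 and in DESeq2). Limma on log2(TPM + 1) called 4 higher in TSA and 0 lower, beside 26.4% and 8.61% of all genes. Ddit4 (REDD1), a brake on mTORC1, stood at 24.0 and 32.4 TPM in DMSO, 93.2, 201 and 147 in GSK-343 and 145 and 99.9 in TSA. Its log2 fold change in GSK-343 was 1.49 ± 0.41 (edgeR adjusted p = 0.0129), lost without DMSO replicate 1 (0.0996) within 0.00121 to 0.195. Trib3 stood at 0.56 and 0.00 TPM in DMSO. It had 63 counts over the 3 GSK-343 libraries and 1 over the 2 DMSO libraries. Per TMM-scaled library size its ratio was 43.6, with a 95% interval of 7.55 to 1751 for counting noise alone, not spread among libraries. The edgeR adjusted p was 0.00871 and 0.0649 without DMSO replicate 2, the highest of its alternatives, which began at 0.00616. Sesn2, at 17.5 and 4.06 TPM in DMSO, was the third. Of the transporters, Slc7a5 was lower in TSA, from 41.5 and 25.4 TPM in DMSO (-1.99 ± 0.43, adjusted p = 0.00601). Limma on log2(TPM + 1) gave an adjusted p of 0.112, within 0.000387 to 0.15 over its alternatives.

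The ER chaperones did not move as 1 group against DMSO. Manf, a small secreted ER protein that is induced by ER stress and protects neurons and other cells (chr9:106838312-106891979, minus strand), stood at 88.8 and 83.9 TPM in DMSO, 2245, 1998 and 2223 in GSK-343 and 1303 and 2127 in TSA. There was no overlap between DMSO and the treated libraries. The log2 fold change was 3.51 ± 0.40 in GSK-343 (edgeR adjusted p = 9.37e-05) and 2.91 ± 0.40 in TSA (adjusted p = 0.000567), and both calls held in all 19 alternatives. Its estimated length was 894 to 999.5 bases in all libraries. Its exons overlap those of Rbm15b on the same strand by 14 bases, and those of 4930524O07Rik by 166 and Dcaf1 by 146 on the other.

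Hspa5 and Hsp90b1 did not follow Manf. Hspa5 stood at 505 and 430 TPM in DMSO, inside the range of the treated libraries. On the TMM scale its mean was 993 CPM (scaled counts, with no division by length) in DMSO, 619.8 in GSK-343 and 469 in TSA, with log2 fold changes of -0.68 ± 0.34 (adjusted p = 0.126) and -1.08 ± 0.38 (adjusted p = 0.0481). On the TPM scale, limma gave 0.03 (adjusted p = 0.951) for GSK-343, so its direction depended on the scale. Under total count scaling TSA gave -0.40 and was not called (edgeR adjusted p = 0.398). In TSA the call was lost in limma (0.768), without either DMSO library (0.158 and 0.117), without GSK-343 replicate 2 (0.0601) or 3 (0.0682) and without TSA replicate 1 (0.337), within 0.0139 to 0.768. Hsp90b1 (GRP94), which folds secreted and membrane proteins and carries 2 copies of the element above, was lower on both scales: 911 and 1083 TPM in DMSO, 385, 339 and 352 in GSK-343 and 259 and 521 in TSA. Its log2 fold change was -1.67 ± 0.36 (adjusted p = 0.00365) and -1.92 ± 0.41 (adjusted p = 0.00616), held in all 19 alternatives. Its counts were not whole in any of the 7 libraries, so reads were shared with other loci, its exons overlap other genes by up to 270 bases, and its estimated length was 1541 and 1724 bases in DMSO and 2389 to 2604 in the others. Its value is uncertain to that extent.

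Ratios within a library do not depend on the scaling between libraries. The ratio of Manf to Hspa5 TPM was 0.176 and 0.195 in DMSO, 5.03, 3.94 and 4.68 in GSK-343 and 3.94 and 3.88 in TSA. That of Hsp90b1 to Hspa5 was 1.81 and 2.52, then 0.864, 0.668 and 0.741, then 0.783 and 0.95. That of Pdia4 to Hspa5 was 0.273 and 0.315, then 0.245, 0.179 and 0.169, then 0.404 and 0.285. Relative to BiP, Manf was thus higher and Hsp90b1 lower in every treated library than in both DMSO libraries. For Pdia4 the GSK-343 libraries lay below both DMSO libraries, and the TSA libraries lay above GSK-343 and overlapped with DMSO. These ratios still carry the difference in read layout.

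Pdia4, a disulfide isomerase, stood at 138 and 136 TPM in DMSO, 80.4 to 109.5 in GSK-343 and 134 and 156 in TSA. Its log2 fold change was -1.38 ± 0.29 in GSK-343 (edgeR adjusted p = 0.00318). Limma on log2(TPM + 1) gave an adjusted p of 0.148 there, within 2.97e-05 to 0.148 over the alternatives. In TSA the log2 fold change was -1.08 ± 0.33 (edgeR adjusted p = 0.0267), where limma on log2(TPM + 1) gave 0.08. Total count scaling gave -0.39 in TSA and no call (edgeR adjusted p = 0.349). The TSA call was lost without DMSO replicate 1 (0.0978) or 2 (0.112) and without TSA replicate 1 (0.256) or 2 (0.0770), within 0.00506 to 0.848. Creld2, a secreted ER stress protein whose promoter is shown above, stood at 30.6 and 27.0 TPM in DMSO and 27.9 and 26.0 in TSA. Its TMM-scaled log2 fold change in TSA was -1.38 ± 0.46 (adjusted p = 0.0396), a call lost in 13 of 19 alternatives, among them each library left out save GSK-343 replicate 1 (0.0537 to 0.214), within 0.0211 to 0.852. Hyou1 was the other chaperone called lower in TSA, at 43.3 and 45.8 TPM in DMSO and 53.0 and 46.5 in TSA, higher in TPM and lower in CPM. Herpud1, Dnajb9, Dnajc3 and Sdf2l1 were not called by edgeR. DESeq2 called Dnajc3 lower in TSA (-1.15, adjusted p = 0.0427; edgeR 0.0579). Limma on log2(TPM + 1) called Dnajb9 higher in GSK-343 (1.20, adjusted p = 0.0369; edgeR 0.485) and in TSA (1.96, adjusted p = 0.00906; edgeR 0.17).

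The sensors are given here together with Xbp1, the target of IRE1. Atf6 was lower in GSK-343 (-1.53 ± 0.31, edgeR adjusted p = 0.0025) and in TSA (-1.34 ± 0.35, adjusted p = 0.014), from 63.2 and 38.9 TPM in DMSO. With GC and length trends removed GSK-343 gave 0.20 (edgeR adjusted p = 0.602) and TSA gave -0.50 (0.233). Total count scaling also lost the call in TSA (edgeR adjusted p = 0.152). Limma on log2(TPM + 1) did not call Atf6 in either drug (0.127 and 0.666). The ranges over the alternatives were 1.27e-05 to 0.602 and 0.00185 to 0.666. In TSA the call was also lost without DMSO replicate 1 (0.128), TSA replicate 1 (0.122) or TSA replicate 2 (0.0517). Xbp1, at 19.0 and 52.1 TPM in DMSO, gave 1.17 ± 0.44 in GSK-343 (adjusted p = 0.051, under the threshold in 10 of 19 alternatives) and 0.46 ± 0.47 in TSA (adjusted p = 0.493), which turned to -0.11 without DMSO replicate 1 and was called higher in limma on log2(TPM + 1) (1.53, adjusted p = 0.0396) and log2(TPM + 0.1) (1.56, adjusted p = 0.0448), within 0.0396 to 0.952. Eif2ak3, at 4.11 and 3.59 TPM in DMSO, gave 0.81 ± 0.46 (adjusted p = 0.182) and 1.12 ± 0.50 (adjusted p = 0.109). In TSA it was called higher under total count scaling (1.81, adjusted p = 0.015) and in all 3 limma fits (1.75 to 1.97, adjusted p = 0.017 to 0.0189), within 0.015 to 0.415. In GSK-343 it was called under total count scaling (0.0392) and in limma with no filter (0.0456), within 0.0392 to 0.419. Ern1, at 5.61 and 8.14 TPM, gave -1.25 ± 0.51 (adjusted p = 0.0687) and -0.43 ± 0.56 (adjusted p = 0.598), the latter turning to 0.57 in limma on log2(TPM + 1). In GSK-343 it was called lower with the filter of 50 counts in 2 libraries (0.0438), with the replicate block (0.037) and among nuclear protein-coding genes alone (0.0494), within 0.037 to 0.371.

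**Figure D5:**
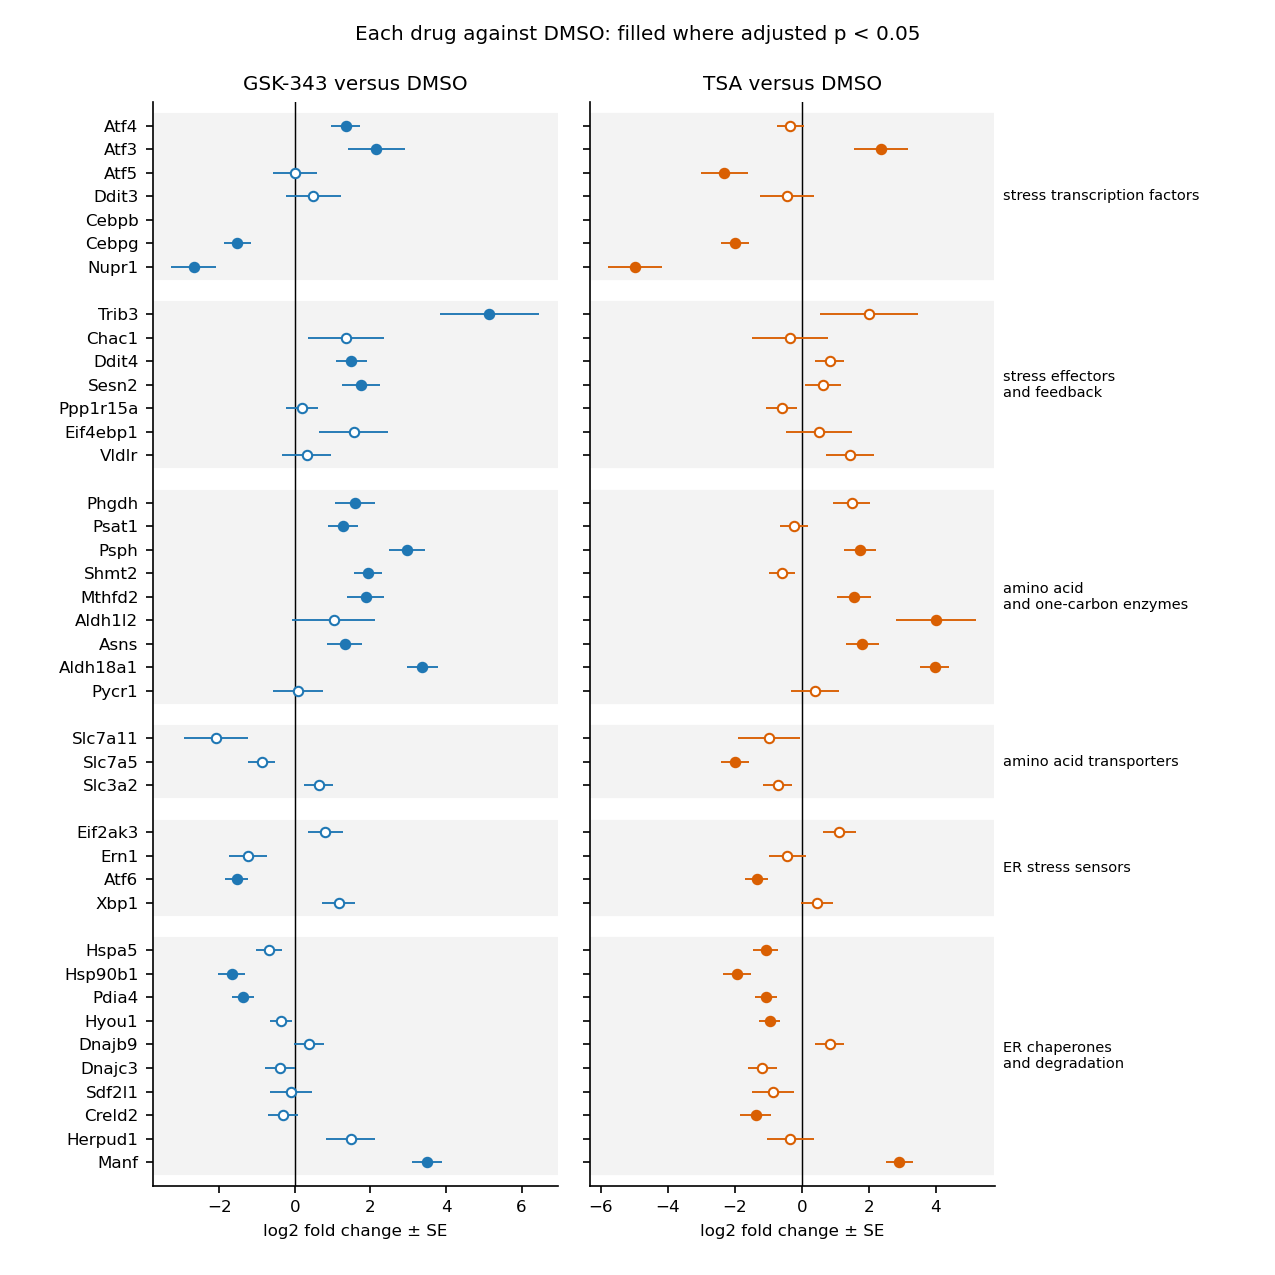
Log2 fold change (± SE) of GSK-343 (left) and TSA (right) against DMSO for the 39 members tested, on the TMM scale; filled points have an edgeR adjusted p under 0.05. Manf and Aldh18a1 lie above 2.9 and Nupr1 below -2.6 on both sides, and 8 of the 10 chaperone points in the right panel lie below 0.

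The difference between DMSO and the other libraries reached the members' gene models. For 6 of 40 members (15%) the mean estimated transcript length was over 1.5 times longer in the treated libraries, against 10.3% of the genes tested: Trib3, Aldh18a1, Slc7a11, Mthfd2, Herpud1 and Hsp90b1. None was shorter by that factor. Counts were not whole, which marks reads shared between genes or loci, for 26 members in each DMSO library and for 3 or 4 in each treated one. Exons of 13 members overlap those of another gene, 12 of them a gene on the other strand.

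Other genes of the same pathways were read from 9 lists. Their counts between TSA and GSK-343 are to be read beside the shares of all genes called, 5.00% lower and 4.56% higher. Between TSA and GSK-343 the 23 ER folding enzymes and lectins gave 6 lower and 0 higher (0 at an unadjusted p under 0.05), with a median log2 fold change of -0.66 beside 0.00 for all genes. The 3 with the smallest adjusted p were the cyclophilin Ppib (-1.51 ± 0.31, edgeR adjusted p = 0.0155), the disulfide isomerase Txndc5 (-1.54 ± 0.32, adjusted p = 0.0171) and the prolyl isomerase Fkbp9 (-1.38 ± 0.32, adjusted p = 0.0229). The count of the list was 3 under total count scaling, 0 in limma on log2(TPM + 1), and 0 without TSA replicate 1 or without TSA replicate 2, 2 without GSK-343 replicate 2, and 3 without GSK-343 replicate 3 or DMSO replicate 1. Of 16 sensors and regulators of the integrated stress response, 2 were lower, the eIF2B subunits Eif2b4 (-1.86 ± 0.41, adjusted p = 0.0206) and Eif2b1 (-1.59 ± 0.36, adjusted p = 0.0219). Without GSK-343 replicate 3, TSA replicate 1 or TSA replicate 2 the count was 0, without GSK-343 replicate 2 it was 1, and limma on log2(TPM + 1) gave 0. eIF2B is the exchange factor that phosphorylated eIF2 blocks. Eif2b4 stood at 59.2, 67.2 and 57.3 CPM in GSK-343, 17.9 and 15.8 in TSA and 1.57 and 2.70 in DMSO.

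Of 16 further ATF4 targets tested, Sqstm1 (p62), an autophagy receptor, was lower in TSA (-1.78 ± 0.32, edgeR adjusted p = 0.0104) and Cbs, which starts transsulfuration, higher (3.94 ± 1.07, adjusted p = 0.039). Each is 6.25% of the list, near the 5.00% and 4.56% of all genes called lower and higher. The higher count was 0 without any 1 of the GSK-343 or TSA libraries, and the lower count was 0 without TSA replicate 2, but 2 when GSK-343 replicate 1 or TSA replicate 1 was left out. Limma on log2(TPM + 1) called 0 of this list in either direction. Of 29 translocon and signal peptidase genes, 3 were lower, Ssr2 (-1.85 ± 0.36, adjusted p = 0.0143), Srp68 (-1.66 ± 0.42, adjusted p = 0.031) and Ddost, and Sec63 was higher (1.37 ± 0.34, adjusted p = 0.0303). These are 10.3% lower and 3.45% higher, the latter under the share of all genes. Without TSA replicate 2 neither direction had a call; without GSK-343 replicate 2 or 3 there were 1 lower and 0 higher, and without TSA replicate 1 there was 1 lower, as in limma on log2(TPM + 1). Of 12 cytosolic and mitochondrial chaperone genes, Hsp90ab1 (-1.64 ± 0.34, adjusted p = 0.0163) and Hsf1 (-2.70 ± 0.76, adjusted p = 0.044) were lower. This count was 0 without TSA replicate 2, and it was 1 when GSK-343 replicate 2 or 3, TSA replicate 1 or DMSO replicate 1 was left out. Of 15 immediate early genes, which respond to handling as well as to signals, 3 were lower: Jund (-2.53 ± 0.58, adjusted p = 0.0235), Ier2 (-1.34 ± 0.33, adjusted p = 0.0294) and Dusp1 (-1.47 ± 0.38, adjusted p = 0.0327). It was 0 without GSK-343 replicate 3 or TSA replicate 2, 1 without TSA replicate 1, 2 without GSK-343 replicate 2, and 0 in limma on log2(TPM + 1). The aminoacyl-tRNA synthetases (20), the folate and one-carbon enzymes (19) and the ER-associated degradation genes (18) gave 0 calls in edgeR. At an unadjusted p under 0.05 these were 5 lower and 0 higher, 2 lower and 3 higher, and 4 lower and 1 higher. DESeq2 called 1 synthetase lower and 1 folate enzyme higher, and limma on log2(TPM + 1) called 0 in all 3 lists.

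Counts against DMSO are to be read beside the shares of all genes: edgeR called 17.7% higher and 21.3% lower in GSK-343, and 12.8% and 15.7% in TSA, and limma on log2(TPM + 1) called 23.2% and 11.9%, and 26.4% and 8.61%. The aminoacyl-tRNA synthetases, which charge tRNAs and include known ATF4 targets, gave 11 of 20 higher in GSK-343 and 6 of 20 in TSA, with 0 lower in either (0 also unadjusted, in DESeq2 and in limma). Their median log2 fold changes were 1.08 and 0.82. In GSK-343 the count was 7 without DMSO replicate 2; in TSA it was 12 under total count scaling and in limma on log2(TPM + 1), 2 without DMSO replicate 1 and 3 without TSA replicate 1 or TSA replicate 2, with 4 without DMSO replicate 2. The ER folding list gave 13 higher and 1 lower (Ero1l) of 23 in GSK-343, with a median of 1.27, and 7 higher and 1 lower (Dnajb11) in TSA, with a median of 0.42. In GSK-343 its higher count was 8 without DMSO replicate 2; in TSA it was 2 without DMSO replicate 2, 4 without DMSO replicate 1 or TSA replicate 2, and 12 in limma on log2(TPM + 1).

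In the other 7 lists, as over all genes, the balance moved toward higher calls on the TPM scale, so each is given with its count in limma on log2(TPM + 1). The translocon list gave 13 higher and 3 lower (Dad1, Srp19, Sec63) of 29 in GSK-343 and 6 higher and 4 lower (Dad1, Srp19, Stt3a, Srp68) in TSA, with 18 and 2, and 17 and 1, in limma. The degradation list gave 6 higher and 2 lower (Edem3, Syvn1) of 18 in GSK-343 and 4 higher (Edem2, Derl1, Faf2, Selenos) and 1 lower (Syvn1) in TSA, with 9 and 0, and 7 and 0, in limma. The stress regulators gave 2 higher (Eif2b4, Eif2b1) and 1 lower (Eif2ak2) of 16 in GSK-343 and 3 higher (Eif2b4, Eif2b1, Eif2ak4) and 1 lower (Gcn1l1) in TSA, with 6 and 0, and 8 and 0, in limma.

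The further ATF4 targets gave 4 higher (Sqstm1, Map1lc3b, Got1, Jdp2) and 2 lower (Slc7a1, Slc38a2) of 16 in GSK-343 and 4 higher (Got1, Sqstm1, Map1lc3b, Slc1a5) and 1 lower (Nfe2l1) in TSA, with 5 and 0, and 6 and 0, in limma. The folate list lay below the shares of all genes in edgeR, with 1 higher (Mthfd1) and 2 lower (Shmt1, Mat2a) of 19 in GSK-343 and 2 higher (Gldc, Mthfd1) and 1 lower (Mat2a) in TSA, with 5 and 0, and 6 and 0, in limma. The cytosolic and mitochondrial chaperones gave 3 higher (Hspa8, Hsp90ab1, Lonp1) and 4 lower (Hspe1, Dnaja1, Hsf1, Hspd1) of 12 in GSK-343 and 1 higher (Hspa8) and 4 lower (Hsf1, Dnaja1, Hspe1, Dnajb1) in TSA, with 4 and 1, and 5 and 2, in limma. The immediate early genes gave 6 higher and 2 lower (Zfp36, Fosb) of 15 in GSK-343 and 5 higher (Fos, Nr4a1, Junb, Btg2, Ier2) and 5 lower (Zfp36, Dusp1, Jun, Egr1, Klf4) in TSA, with 6 and 0, and 5 and 0, in limma. Single libraries moved these counts too. In TSA, the immediate early genes gave 2 higher and 1 lower without DMSO replicate 2, 2 and 3 without DMSO replicate 1, and 3 and 2 without TSA replicate 1. The TSA degradation list gave 2 higher without either DMSO library, the TSA translocon list gave 2 higher without DMSO replicate 1 and 3 without DMSO replicate 2, and the TSA list of further targets gave 0 calls without DMSO replicate 1 and 1 without TSA replicate 1. The GSK-343 folate list gave 0 calls when GSK-343 replicate 2 or 3 was left out, and 4 higher without GSK-343 replicate 1.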

How the data were processed

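The submitters' processing notes name STAR, RSEM, DESeq2 and mm10; versions and the annotation are not given in the sources used here. The deposited expected counts are RSEM's estimated counts per gene, in which ambiguous reads are shared between genes, and the deposited TPM are its abundances per effective length, per the file headers. Of 48709 gene identifiers, 48349 matched GENCODE M21 with the version dropped. Expected counts were rounded and tested with edgeR 4.0.16 (TMM scaling, filterByExpr, quasi-likelihood, 1 model of all 7 libraries, 4 residual degrees of freedom); CPM is on the TMM scale. DESeq2 1.42.0 and limma 3.58.1 on log2(TPM + 1) are alternatives; folds in limma understate low genes. The procedure was tested on simulated data. The members and lists were chosen with earlier results of these data known. Fold changes are given for members called between TSA and GSK-343, for the 8 smallest adjusted p per direction against DMSO, for 10 fixed members, and for up to 3 called genes per list. Ddost and the genes named only in a list's counts against DMSO were chosen after their values were seen.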

Additional observations from a re-analysis of the deposited data

How the results depend on the processing

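The number of members called between TSA and GSK-343 (4) became 2 under total count scaling, 7 with no low-count filter, 2 with the replicate block, 1 in limma on log2(TPM + 1) and 0 in limma on log2(TPM + 0.1) or with no filter (at an unadjusted p under 0.05, 5 higher and 8 lower, and 6 higher and 8 lower); leaving out 1 library gave 1 to 6. The cause was not tested. The replicate block left 15 calls for TSA and 16 for GSK-343 against DMSO. Deviations of same-numbered libraries from their group means correlated at -0.094 to 0.04. In a group of 2 these deviations mirror each other, so this cannot show whether a number marks a shared culture or animal. Totals of calls do not show direction or overlap. Limma on log2(TPM + 1) called 17 members in TSA against DMSO, 15 higher and 2 lower, and 9 of them were also called by edgeR with TMM. Against DMSO, leaving out 1 library gave 8 to 18 calls for TSA and 13 to 20 for GSK-343, and the other alternatives stayed within 1.5 times of 17 and 18.

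Changes of sign were sought only among the members whose fold changes are given for that comparison. Other members may turn too, as Hyou1 in TSA against DMSO was lower in CPM and higher in TPM. Log2 fold changes of TSA against DMSO turned sign under total count scaling for Atf4 (0.39), Ddit3 (0.25), Shmt2 (0.11) and Ern1 (0.26). In limma on log2(TPM + 1), with or without the filter, they turned for Atf4 (0.88), Ddit3 (0.87), Shmt2 (0.61), Ern1 (0.57) and Pdia4 (0.081), and on log2(TPM + 0.1) for Atf4 (0.89), Ddit3 (0.93), Shmt2 (0.64), Ern1 (0.63) and Pdia4 (0.081). For GSK-343 against DMSO, all 3 limma fits turned Hspa5 (0.0285 to 0.0286). With GC and length trends removed Atf6 turned in GSK-343 against DMSO (0.20) and in TSA against GSK-343 (-0.70). Leaving out 1 library turned 6: between TSA and GSK-343, Atf3 (-0.70 to 0.74) and Atf6 (-0.0096 to 0.35); in TSA against DMSO, Atf4 (-0.78 to 0.10), Ern1 (-0.73 to 0.019) and Xbp1 (-0.11 to 1.49); and in GSK-343 against DMSO, Ddit3 (-0.27 to 0.88). None of these reversed values passed the threshold. Where leaving out a library left 1 in its group, that library was assumed to vary like the others.

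At 2 or 3 libraries a group and 2724381 to 5974230 counts, differences in members at a few TPM, such as Trib3, Chac1, Cebpb and Slc7a11, rest on few reads.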
